A study of Mus musculus with 6 samples.

Results

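Lmnb1 and Lmna are the mouse genes for lamin B1 and lamins A and C, and were examined here as 2 genes within a genome-wide map of ubiquitylated histone H2B (H2Bub). They were chosen with earlier results of these data in view. Among the 10 kb windows with enough reads to be compared, the one with the largest loss of H2Bub in myotubes lies in the Lmnb1 interval. Lmna was set beside it as another lamin gene. Every difference between myotubes and myoblasts given below therefore belongs to the contrast that led to the choice, and is a description with no test. Each gene was taken as an interval on build mm9: Lmnb1 as chromosome 18, 56867000 to 56914000 (47 kb), and Lmna as chromosome 3, 88285000 to 88307000 (22 kb). The intervals were not checked against an mm9 annotation, since none was used here. Between them they held 51 of the 191324 peaks in the myoblast list and 0 of the 25745 peaks in the myotube list.

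The samples were 6 libraries of C2C12, a mouse myoblast line that fuses into multinucleate myotubes once growth serum is withdrawn; the source names spell it C1C12. The 3 growing myoblast libraries (MB) came from cells in DMEM with 10% FBS taken at about 40% confluency. The 3 myotube libraries (MT) came from cells kept for 96 h, or 4 days, in DMEM with 2% horse serum, changed once on day 2. All 6 used chromatin cut with MNase and the H2Bub antibody clone 56, with no other treatment or genetic change in the labels. The labels number the libraries but do not say that they were separate cultures, so the spread between them may be technical. Each library has its own antibody lot number, so lot cannot be told apart from library. No lot occurs in both groups, so the groups cannot be compared within a lot. The labels name no step that separates myotubes from unfused cells, and fewer cells with the mark and less mark per cell cannot be told apart in these bulk samples. The cell types were not checked against marker genes here. Each library held 8759266 to 15891204 reads on chromosomes 1 to 19 and X, and MB peaks held 31.0% to 38.1% of the reads in the MB libraries and 6.66% to 9.48% in the MT libraries.

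Lamins are intermediate filament proteins that form the meshwork under the inner nuclear membrane. Lamin B1 is a B-type lamin that stays anchored to the membrane by a lipid tail and is known to decline in senescent cells, whereas lamins A and C are A-type lamins, made from the single Lmna gene by splicing, and are abundant in differentiated tissues such as muscle, where mutations of the gene cause muscular dystrophy. H2Bub is a single ubiquitin placed on histone H2B while RNA polymerase II moves through a gene, and is found mainly over the bodies of transcribed genes. It is not a measure of RNA or protein level.

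The Lmna promoter is shown because the H2Bub signal of that gene began at the 5′ end of its interval. RefSeq's table lists 2 Lmna starts, and the one farther upstream is printed, 5′ to 3′ on the minus strand of build GRCm38.p6 (chr3:88503303-88503602); that position was not converted to mm9, so it was not placed on the profiles below. Capitals mark the match to the GC box GGGCGG, here as its complement CCGCCC.
Lmna promoter: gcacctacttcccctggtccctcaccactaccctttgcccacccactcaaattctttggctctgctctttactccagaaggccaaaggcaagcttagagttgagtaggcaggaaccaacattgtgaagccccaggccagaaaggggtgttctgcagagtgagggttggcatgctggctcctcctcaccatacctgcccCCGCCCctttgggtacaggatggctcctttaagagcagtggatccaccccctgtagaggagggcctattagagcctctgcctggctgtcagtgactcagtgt
These 300 bases held 1 GC box, on either strand, as did 35.7% of the 32851 promoters in the table (at least 1 match). The stretch had 56.3% G and C and 1 CpG. Neither CAGCTG, the E-box form bound by myogenic factors such as MyoD, nor TATAAA was found in it on either strand; 16.3% and 13.6% of all promoters held them. These are letter matches only.

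Lmnb1, the B-type lamin gene, carried dense H2Bub over nearly its whole interval in myoblasts and had a level close to that of its surroundings in myotubes. Levels are reads scaled to library size (RPM, per 1e+06 reads on chromosomes 1 to 19 and X) per kb. Its level was 3.03, 3.57 and 3.41 in MB replicates 1, 2 and 3 and 0.367, 0.414 and 0.484 in MT replicates 1, 2 and 3. The groups did not overlap, and the lowest MB library was far above the highest MT library. The means were 3.34 ± 0.276 and 0.422 ± 0.0589 (SD, n = 3), a ratio of 7.91 and a mean log2 difference of -2.99 (SE 0.14). The values rest on 1323 to 2546 reads per MB library and 151 to 329 per MT library.

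Lmna, the A-type lamin gene, had a weak H2Bub signal in myoblasts and also reached the level of its surroundings in myotubes. Its level was 0.793, 0.901 and 1.05 RPM per kb in MB replicates 1, 2 and 3, and 0.488, 0.428 and 0.427 in MT replicates 1, 2 and 3. Again all MB libraries were above all MT libraries, but by a narrower margin than at Lmnb1. The means were 0.916 ± 0.13 and 0.448 ± 0.0348 (SD, n = 3), a ratio of 2.05 and a mean log2 difference of -1.03 (SE 0.13). The counts were lower than for Lmnb1, with 162 to 368 reads per MB library and 87 to 136 per MT library.

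The level of Lmnb1 was above that of Lmna in every myoblast library and close to it in the myotube libraries. Within a library, where depth and scaling cancel, the Lmnb1 level per kb was 3.82, 3.96 and 3.24 times that of Lmna in MB replicates 1, 2 and 3, and 0.752, 0.968 and 1.13 times in MT replicates 1, 2 and 3. In myotubes the ratio lay on both sides of 1. On the log2 scale, Lmna relative to Lmnb1 moved from -1.87 ± 0.155 in myoblasts to 0.09 ± 0.298 in myotubes (SD, n = 3), a difference of 1.96.

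The flanks gave a reference that needs no scaling between libraries. Over the 20 kb on each side, Lmnb1 stood at 10.1, 10.9 and 8.56 times its flanks in MB replicates 1, 2 and 3 and at 0.834, 0.952 and 1.08 times in MT replicates 1, 2 and 3. Lmna stood at 3.20, 4.02 and 2.97 times its flanks in MB replicates 1, 2 and 3, and at 1.08, 1.01 and 0.847 times in MT replicates 1, 2 and 3. In myotubes the means were 0.954 ± 0.121 for Lmnb1 and 0.979 ± 0.12 for Lmna (SD, n = 3). Taken over its whole interval, neither gene thus exceeded its flanks by more than the spread between libraries. Against peak-free windows of their own chromosomes, the 10 kb windows that touch no peak of either list, both genes stood at 1.24 in myotubes (SD 0.19 for Lmnb1 and 0.124 for Lmna), and their flanks at 1.30 and 1.28. A small remaining excess over the flanks would not be detectable at this depth.

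Levels of the flanks themselves went the other way, which bears on every difference scaled by total reads. The Lmnb1 flanks had 0.341 ± 0.0512 RPM per kb in myoblasts and 0.441 ± 0.00709 in myotubes, and the Lmna flanks 0.275 ± 0.0692 and 0.46 ± 0.0407 (SD, n = 3). Windows without any peak on chromosome 18 averaged 0.217 ± 0.0172 and 0.341 ± 0.0116, and those on chromosome 3 averaged 0.205 ± 0.0186 and 0.361 ± 0.0178. With scaling on the background (trimmed mean of M-values, TMM, over 10 kb windows) in place of total reads, the log2 difference was -3.70 at Lmnb1 and -1.73 at Lmna. The median over all 10 kb windows tested was 0.78 under total reads and 0.08 under background scaling. No peak of either list lay in the 20 kb flanks of either gene. In the RefSeq gene order (GRCm38.p6) the protein-coding neighbours are Tex43 and Marchf3 for Lmnb1, and Sema4a and Mex3a for Lmna.

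**Figure D1:**
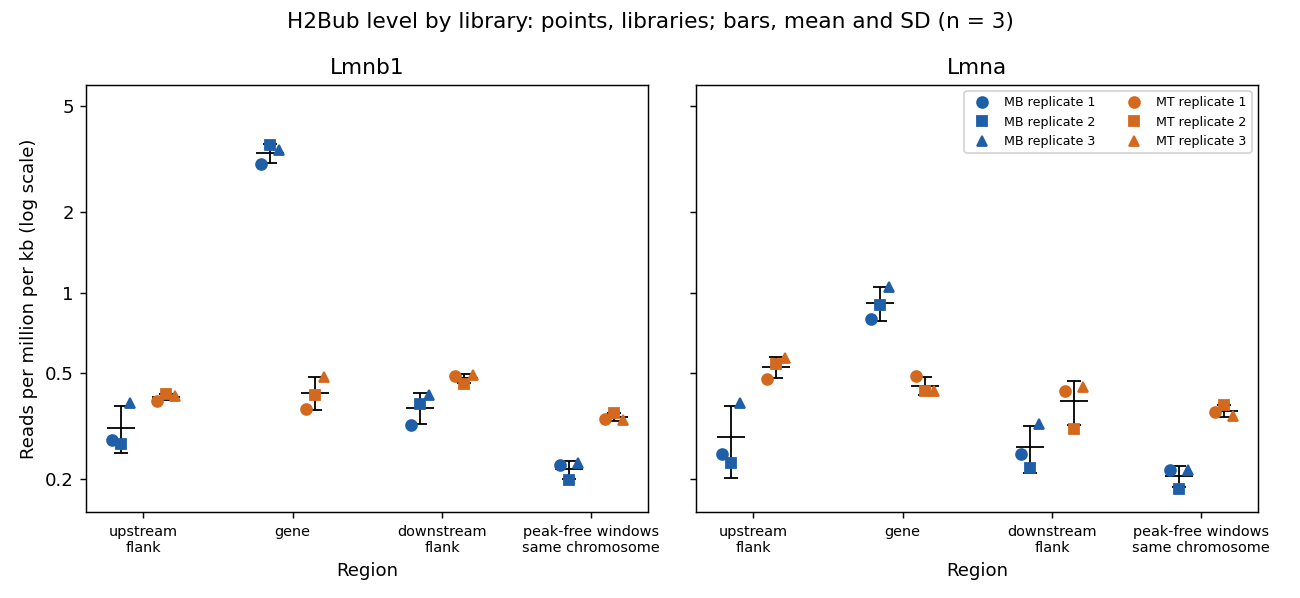
H2Bub level in RPM per kb on a log scale, for each gene interval, its 20 kb flanks and peak-free 10 kb windows of the same chromosome; points are libraries and bars the mean and SD of 3. The MB points of Lmnb1 sit at 3.03 to 3.57 and those of Lmna at 0.793 to 1.05, while the MT points of both genes lie around those of their flanks.

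Along Lmnb1 the myoblast signal rose steeply near the 5′ end, was highest 10 to 12 kb in and was lower toward the 3′ end. In 1 kb bins, the mean MB level was 0.152 in the first bin, 0.869 in the next and 4.01 RPM per kb in the bin starting 2 kb in. The first bin was lower than the bin just upstream of the interval (0.373), and it was also the lowest bin in myotubes (0.0461). The highest bin, starting 11 kb in, had 7.86, 8.77 and 9.63 RPM per kb in MB replicates 1, 2 and 3 and 0.571, 0.108 and 0.76 in MT replicates 1, 2 and 3. The profile was alike in the 3 MB libraries, with Pearson correlations of 0.92 to 0.956 between libraries over the 47 bins. These bins share base composition across libraries. Each bin starting 2 to 15 kb in had a mean of at least 3.96 RPM per kb, and a second rise reached 5.61 at 20 kb. Between MT libraries the correlations were 0.194 to 0.351, at counts of a few reads per bin.

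Lmna had a similar lean toward its 5′ end at a lower level. The gene is transcribed from the minus strand, so its 5′ end is the right end of the interval. The mean MB level was 0.141 RPM per kb in the last bin upstream, 0.923 in the first bin of the interval and 1.71 in the highest, which starts 6 kb in. In that bin MB replicates 1, 2 and 3 had 2.15, 1.52 and 1.45 RPM per kb and MT replicates 1, 2 and 3 had 0.685, 0.325 and 0.415. The bins starting 10 and 11 kb in had the lowest means of the interval in myoblasts, 0.219 and 0.126 RPM per kb. In myotubes the first of them had the lowest mean, 0.156, whereas the bin at 11 kb had 0.228, 0.325 and 0.622 in MT replicates 1, 2 and 3, around the median MT bin of the gene (0.443).

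**Figure D2:**
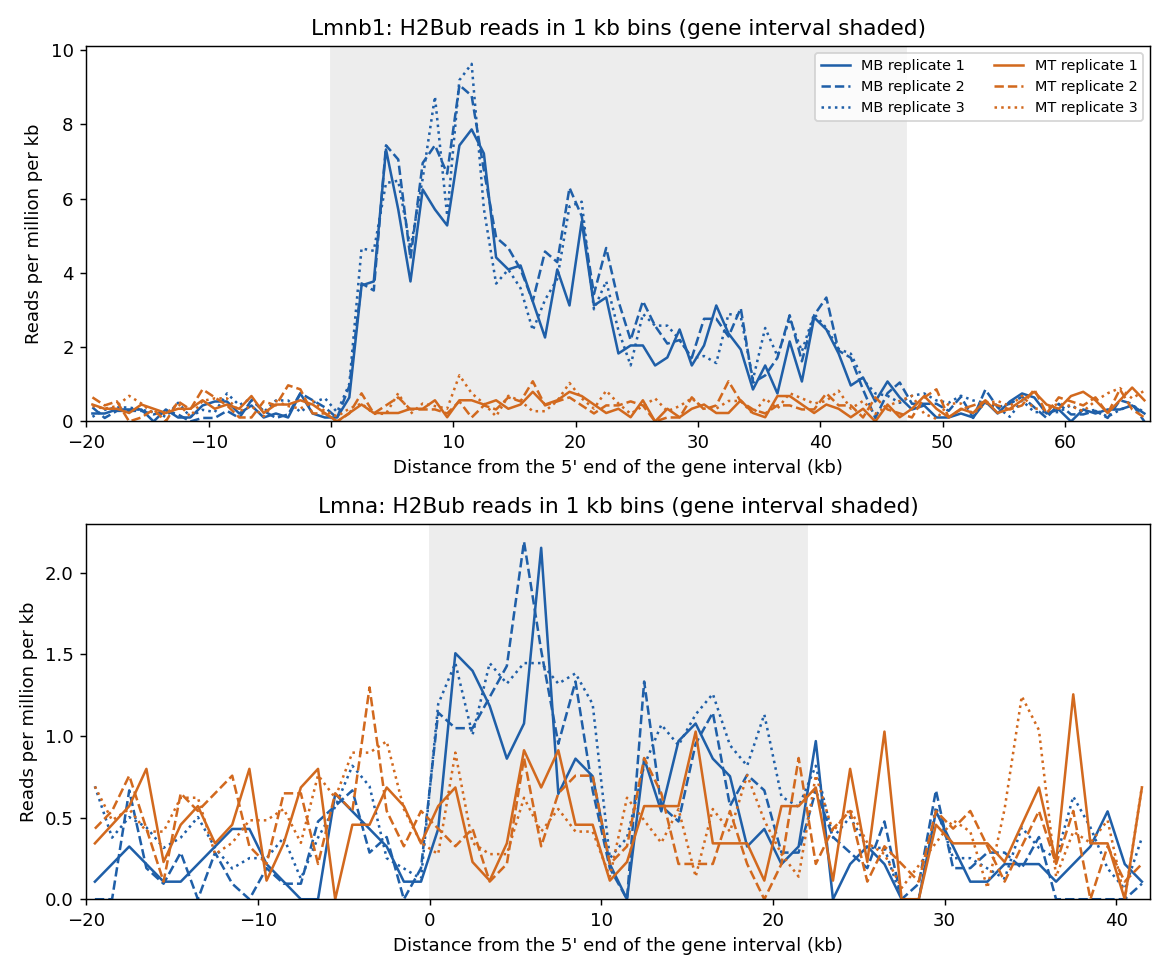
H2Bub level in RPM per kb in 1 kb bins against distance from the 5′ end of each gene interval (shaded), with 20 kb of flank on each side; 1 line per library. MB lines reach mean values of 8.75 in Lmnb1 and 1.71 in Lmna (the vertical scales differ), and MT lines stay near the flank level throughout.

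The share of each gene's reads by position needs no scaling, and for Lmnb1 it leaned to the 5′ end in the myoblast libraries. The first 16 of 47 bins, or 34.0% of the interval, held 54.3%, 51.6% and 52.9% of its reads in MB replicates 1, 2 and 3 and 33.1%, 31.1% and 32.8% in MT replicates 1, 2 and 3. The last 15 bins, or 31.9%, held 16.3% ± 1.08 in myoblasts and 32.2% ± 2.62 in myotubes (SD, n = 3). The MT reads were thus spread about as evenly as the bins themselves.

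For Lmna the first 8 of 22 bins, or 36.4% of the interval, held 53.1%, 53.4% and 45.9% of the reads in MB replicates 1, 2 and 3. They held 41.5%, 35.6% and 39.0% in MT replicates 1, 2 and 3. The groups did not overlap, but the lowest MB and the highest MT library were close. The middle and last parts of Lmna had about equal shares in myoblasts (24.4% ± 1.53 and 24.8% ± 2.79), whereas in Lmnb1 the share kept falling (30.8% ± 1.67 in the middle).

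**Figure D3:**
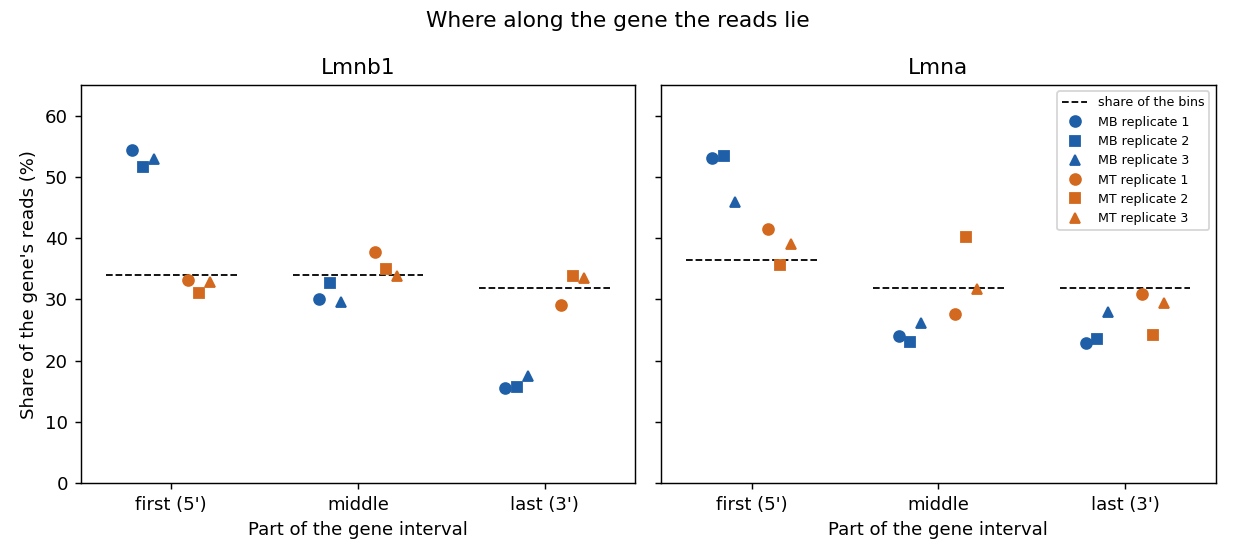
Percent of each gene's reads in the first, middle and last part of its interval, counted from the 5′ end; points are libraries and dashed lines the share of bins in that part. MB points of the first part lie at 45.9% to 54.3% in both genes, above the dashed lines, and MT points of Lmnb1 lie close to them.

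Bin by bin, all 3 MB libraries were above all 3 MT libraries in 44 of the 47 bins of Lmnb1 and in 9 of the 22 bins of Lmna, against 8.86% of all 2337841 bins of 1 kb with reads. The 3 remaining bins of Lmnb1 lie at the ends of its interval, starting 0, 44 and 46 kb from the 5′ end. The 9 bins of Lmna start 1 to 6, 8, 16 and 17 kb in. No bin of either gene had all MT libraries above all MB libraries. In the flanks 5 of 40 bins at Lmnb1 and 11 of 40 at Lmna did so, where the share over all bins was 23.3%. The members were chosen on this contrast, so nothing is read from these counts.

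MB peaks tiled Lmnb1 and were scattered over Lmna. Lmnb1 held 42 MB peaks that covered 31564 bp, or 67.2% of the interval, from 56868831 to 56912329; the outermost peaks lay 1.83 and 1.67 kb inside the interval's ends. Lmna held 9 MB peaks that covered 3546 bp, or 16.1% of the interval, from 88290566 to 88305616, which left the 5.57 kb at the 3′ end without one. Peaks were 64 to 3499 bp wide in Lmnb1 (median 439) and 197 to 751 bp in Lmna (median 318), where the median of the whole MB list was 371 bp. Each list is 1 set per group, so these counts have no replicate error.

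The Lmnb1 peak with the most myoblast reads, chromosome 18, 56876745 to 56880243, had 25.0, 28.1 and 27.0 RPM in MB replicates 1, 2 and 3 and 1.94, 1.41 and 2.56 in MT replicates 1, 2 and 3. All MB values were above all MT values. The one with the fewest, 56904918 to 56905151, had 0.108, 0.667 and 0.44 RPM in the same MB libraries and 0, 0.108 and 0.207 in the MT libraries, so that the groups overlapped. It rests on 15 MB and 4 MT reads.

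The Lmna peak with the most myoblast reads, chromosome 3, 88301311 to 88302061, had 0.969, 2.38 and 1.20 RPM in MB replicates 1, 2 and 3 and 0.799, 0.866 and 0.553 in MT replicates 1, 2 and 3. The groups came close but did not overlap. At the Lmna peaks with the fewest reads, 88291243 to 88291560 and 88302679 to 88302875, 14 MB reads each stood against 6 and 3 MT reads. Over all peaks, the groups did not overlap in 40 of 42 at Lmnb1 and in 4 of 9 at Lmna, against 78.9% of all MB peaks, and the list itself was called on myoblast reads.

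Bases in MB peaks remained denser than the bases between them in myotubes as well. In Lmnb1 the level was 4.56 ± 0.376 RPM per kb in peaks and 0.937 ± 0.0886 between them in myoblasts, and 0.512 ± 0.0636 against 0.243 ± 0.0536 in myotubes (SD, n = 3). In Lmna it was 2.05 ± 0.0839 against 0.727 ± 0.133 in myoblasts and 0.791 ± 0.292 against 0.388 ± 0.0236 in myotubes. The wide spread in myotubes came with MT replicate 1, which had 1.13 in Lmna peaks where the other two had 0.641 and 0.604. In every MT library the bases in MB peaks were also above the 20 kb flanks of their gene, whose MT means were 0.441 at Lmnb1 and 0.46 at Lmna. The margin was smallest at Lmnb1 in MT replicate 1, with 0.459 in peaks against 0.440 in the flanks. Whether these margins exceed counting noise was not tested. How many bases between peaks or in the flanks can hold placed reads was not tested.

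In the comparison of all 10 kb windows (limma voom, Benjamini-Hochberg adjusted p under 0.05), 6 of the 6 windows touching Lmnb1 and 2 of the 3 touching Lmna were called lower in myotubes and 0 higher. Over all 233813 windows tested, 13.1% were called lower and 70.9% higher, and nothing is read from the members' counts. With background scaling the calls over all windows were 43868 lower and 5028 higher, in place of 30699 and 165795. The 6 Lmnb1 windows, from the 5′ end, had log2 differences of -0.95, -3.95, -2.92, -2.58, -2.10 and -0.63 (SE 0.21 to 0.32), in the order in which their starts run from 56860001 to 56910001. The first and last of these windows reach into the flanks, so their values mix gene and flank. The second of them had 60.3, 68.1 and 67.5 RPM in MB replicates 1, 2 and 3 and 3.65, 3.57 and 5.11 in MT replicates 1, 2 and 3. It ranked 207 by MB level and 1 from the bottom by log2 difference among the 233813 windows tested. In myotubes the 6 windows, in the same order, lay at percentiles 41.3, 46.7, 79.3, 35.9, 57.1 and 31.7 of the windows tested by level.

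The 3 Lmna windows, starting at 88300001, 88290001 and 88280001, had log2 differences of -1.03, -0.73 and -0.21 (SE 0.20 to 0.21) from the 5′ to the 3′ end. The window at the 5′ end had 9.15, 10.2 and 9.88 RPM in MB replicates 1, 2 and 3 and 5.14, 4.11 and 4.98 in MT replicates 1, 2 and 3, with no overlap. Part of that window lies in the upstream flank. The window at the 3′ end, which reaches into the flank, had 3.77, 4.57 and 6.42 against 4.79, 3.46 and 4.42, with overlap. In myotubes the 3 windows lay at percentiles 64.7, 65.7 and 49.9 of the windows tested by level. With background scaling all 3 were called lower, where 18.8% of windows were.

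At single peak regions the floor on low counts decided what could be tested: 25 of the 42 Lmnb1 regions and 0 of the 9 Lmna regions passed it. All 25 were called lower and 0 higher, where 98.7% and 0.0188% of the 63782 regions tested were; a region could pass on its MB libraries alone. With no floor, 41 of 42 at Lmnb1 and 8 of 9 at Lmna were called lower, where 75.7% of all regions were.

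Neighbouring MB peaks were next linked into stretches wherever less than about 3 kb lay between them, and over Lmnb1 a high myoblast level went with a low myotube level. Its peaks formed 1 stretch of 43.5 kb, and of the 5326 stretches of 10 kb or longer it ranked 452 by MB level (3.57 RPM per kb, median of all 2.00). Its MT level of 0.438 was the 187th lowest (median 0.619), and its log2 difference of -3.00 the 8th lowest (median -1.73). Of the 451 stretches with a higher MB level, 0 had a lower MT level than the one over Lmnb1. Relative to peak-free windows of its chromosome it stood at 16.6 in myoblasts and 1.29 in myotubes, where the medians of all were 9.21 and 1.67. With gaps of up to 1 kb, its stretch ranked 43 of 3727 by log2 difference, and 2 of the 812 with a higher MB level had a lower MT level. These ranks have no replicate error and come from the contrast that chose the gene.

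Lmna formed no stretch of 10 kb. Its peaks made 1 stretch of 7.76 kb in the 5′ part, from 88297862 to 88305616, and 1 of 3.38 kb in the 3′ part, from 88290566 to 88293946, parted by a gap that holds the bins starting 10 and 11 kb in. Among the 6221 stretches of 2 to 10 kb the first lay near the median, with 1.35 RPM per kb in myoblasts (median 1.35) and a log2 difference of -1.40 (median -1.22). The second was weak, at 0.937 RPM per kb, a level at or above 5.14% of the class, with a log2 difference of -0.96. Their MT levels of 0.507 and 0.494 were below the median of 0.597.

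**Figure D4:**
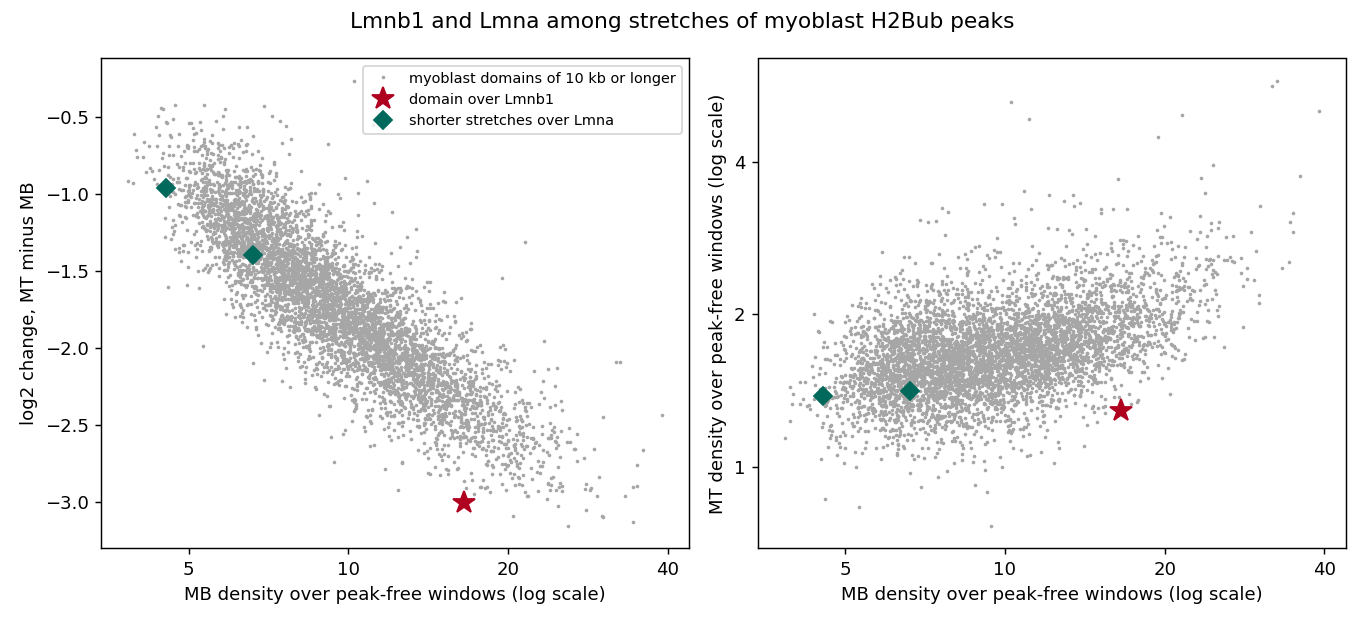
Each grey point is a myoblast stretch of 10 kb or longer; the horizontal axis is its MB level over peak-free windows of its chromosome (log scale), and the vertical axes are its log2 difference (left) and its MT level over peak-free windows (right, log scale). Lmnb1 (star) lies near the lower edge of both clouds at 16.6 on the horizontal axis. The 2 Lmna stretches (diamonds) are shorter than 10 kb and so of another class than the grey points. They lie at 4.53 and 6.62 on that axis, below the median of the grey points (9.21).

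Among stretches of 10 kb or longer only, those most like each gene were sought by distance between log2 levels over the 6 libraries. Shorter stretches, the class of those over Lmna, were not searched. For Lmnb1, of 5325 others, the nearest were chromosome 7, 148749925 to 148785613 (distance 0.41), chromosome 18, 80317544 to 80347058 (0.44), and chromosome 2, 174157333 to 174171814 (0.44). For Lmna, of 5326, they were chromosome 7, 148799472 to 148814457 (0.30), chromosome 12, 92945140 to 92956725 (0.43), and chromosome 9, 109989828 to 110002941 (0.48). No genes were assigned to them, and other genes of the nuclear lamina were not analysed here, for want of an mm9 annotation.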

How the data were processed

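H2Bub was mapped in 6 libraries, 3 per group. The authors deposited, per the labels, 1 file of mapped reads per library (chromosome, base position, strand) on mm9, as the submitters' processing notes name it, and 1 peak list per group with start and end and no score. Aligner, read filters, peak caller, threshold, control and pooling: not given in the sources used here. No position and strand was listed more than once per library (0 repeated lines), and at most 2.71% of the positions in a gene interval were used.

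Reads were counted here in the intervals, 1 kb bins, 20 kb flanks, 10 kb windows and the merged peak regions (202354), and divided by reads on chromosomes 1 to 19 and X. Windows and regions needed 10 reads at the median library size in 3 libraries and 15 in all. They were compared with limma 3.58.1 (voom, two-sided) in R 4.3.3, adjusted by Benjamini-Hochberg over all tested, and the script was tested on simulated data. Gene values are means of log2 levels per library with their SE. Log2 differences of stretches were taken after adding 0.01 RPM per kb. Counting ran in Python 3.11.15 with pandas 2.3.3 and NumPy 2.4.6, and plots were made in matplotlib 3.10.9. The members, lists and most settings were chosen with earlier results of these data known. Named were all windows touching the intervals, the peaks with the most and fewest myoblast reads, and the 3 nearest stretches of 10 kb or longer. Promoter sequence is from RefSeq (GRCm38.p6). The strand of Lmna is from that table and that of Lmnb1 from general knowledge of the gene. The replicate numbers were not taken to pair the libraries.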

Additional observations from a re-analysis of the deposited data

How the results depend on the processing

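At both genes the level was lower in myotubes under each scaling, interval, position shift and left-out library tried. The log2 difference, -2.99 at Lmnb1 and -1.03 at Lmna, was -3.70 and -1.73 with TMM over windows, -3.71 and -1.74 with median-of-ratios factors, and -3.47 and -1.50 with reads outside peaks as the library size. In MB peaks alone it was -1.44 at Lmna. With 1 library left out it was -3.09 to -2.89 and -1.12 to -0.92, and the difference between the genes 1.81 to 2.10. Flanks of 10 kb gave 8.21 in place of 9.88 for Lmnb1 over its flanks in myoblasts. Keeping MB peaks of the list's median width or wider left 24 peaks in Lmnb1 and 4 in Lmna. With gaps of up to 5 kb, 1 stretch of 10 kb or longer covered Lmna in place of 0. Over all windows, background scaling called 48896, of which 5028 were higher, against 196494 and 165795. Over all regions, the 12 higher calls became 2 with background scaling and 5787 with no floor, which called 159046, 153259 of them lower. With 1 library left out, and a floor of 1 library fewer, 7 to 54 regions were called higher and 62014 to 83924 lower, the 7 without MT replicate 3 and the 54 without MT replicate 2; each of the 6 libraries moved the 12 by over 1.5 times when left out. The cause of these shifts was not tested. A replicate block called 196917 windows and 62759 regions, and the members' window counts stayed 6 of 6 and 2 of 3. Deviations of same-numbered libraries correlated at 0.000, -0.172 and 0.146 over windows, so the numbers were not treated as a pairing. Depth limits Lmna most, with 87 reads in its smallest library.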

Other observations

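Just upstream of the Lmna interval, 3 adjacent 1 kb bins had all MT libraries above all MB libraries, and were singled out after their values were seen. From the interval outward, the MB means were 0.141 ± 0.0436, 0.0988 ± 0.0947 and 0.319 ± 0.0649 RPM per kb and the MT means 0.41 ± 0.114, 0.483 ± 0.137 and 0.731 ± 0.217 (SD, n = 3). Over all 1 kb bins, 23.3% had the groups in this order, and peak-free windows of chromosome 3 went from 0.205 to 0.361. The counts are a few reads per bin and library.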
